A study of Caenorhabditis elegans with 2 samples.

Results

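PBRM-1 peaks in coding exons were taken from a chromatin immunoprecipitation and sequencing (ChIP-seq) experiment in Caenorhabditis elegans. They are the peaks whose summit, the position the authors gave within each peak, fell in the coding sequence or 5' UTR of a protein-coding gene. For most of them the summit was the centre of a 320 bp peak, so it need not be the base of highest signal. The summit also had to lie outside every promoter window, which covered the 1000 bp before and the 200 bp after each protein-coding transcript's 5' end. Of the 3243 peaks in the list made by the authors from both replicates, called the series list below, 206 met this rule (6.35%, exact 95% interval 5.54 to 7.25). Of these, 200 had their summit in coding sequence and 6 in a 5' UTR. The worms, of the strain RW12226, were synchronised by starvation as L1 larvae and used whole as young adults at 64.5 h. They carried st12226, an insertion of TY1, EGFP and 3xFLAG tags into pbrm-1 at its own locus on chromosome I, and chromatin was pulled down with an antibody to GFP. The experiment has 1 group of 2 biological replicates, so no condition was compared with another, and signal from all tissues of the worm is mixed. A control experiment named in the labels was not analysed here. Read depth is unknown from peak lists.

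PBRM-1 is the polybromo subunit of PBAF, a form of the SWI/SNF complex. SWI/SNF complexes use ATP to slide or evict nucleosomes, and the bromodomains of polybromo bind acetylated histones. Such complexes are best known at promoters and enhancers. The comparisons below ask which genes the coding-exon peaks mark, how strong the peaks are beside peaks elsewhere, and whether each replicate holds them.

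The sequence under 6 strong coding summits is shown because at these sites the summit lies in translated sequence and outside the promoter windows. They are the members of largest signal whose whole 30-base window is coding, on the chromosomes named. The stronger R03D7.2 peak is not shown because its window is not wholly coding. Each is read on the strand of its gene, 5' to 3', from the RefSeq copy of the WBcel235 assembly, and the capitals mark the codon that holds the summit base. Except at dos-3 and pks-1, that base is the centre of a 320 bp peak, so the codon is not a resolved site.
dos-3 (III:835972-836001, minus strand): tcgcgatcatgctAACaaatactattatca
pks-1 (X:5429549-5429578, plus strand): tctcgtgtcccttCGCcaatgcttagcgga
chmp-7 (II:9056408-9056437, plus strand): ggaaaaacgcctaGCTagactcagacaagc
F57F5.3 (V:12004743-12004772, minus strand): tctgatttaacaAGTcttccaactgatttt
arrd-6 (II:11150022-11150051, plus strand): tctggtcgcatcgAATccatgtttggcaat
pycr-4 (IV:7476562-7476591, minus strand): tggagggagtagtCCTgcatggacatttat
The 6 windows do not share one base composition. In the summit base and 50 bp to each side, the GC content was 52.5% at dos-3 and 50.5% at pks-1, but 36.6% at chmp-7 and 31.7% at F57F5.3.

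Coding exons were a thin part of the PBRM-1 map. Coding sequence and 5' UTRs outside the promoter windows make up 19.2% of the nuclear genome (19292 kb), against 6.35% of the peaks. The strongest of the 206 peaks lay in the 5' UTR of C34C12.2, which RefSeq calls a fibronectin type-III domain-containing protein, at III:3456322-3456514 on ce11. Its signal, the authors' own peak value with no stated scale, was 374. In the replicates' lists of candidate peaks it was 140 in replicate 1 and 224 in replicate 2. The peak in dos-3, which encodes a Delta and OSM-11-like protein, had a signal of 339, with 143 and 177 in the replicates. The peak in pks-1, a polyketide synthase gene that RefSeq annotates as a fatty acid synthase, had 242, with 95 and 141. These 3 peaks stood apart from the rest of the coding-exon peaks, of which the next had 175. In all 3 the value of replicate 2 was the higher one, and all 3 were in both replicates' own lists.

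The next 12 peaks by signal ran from 175 down to 111. They included egl-30, the Gq alpha subunit of neurons and muscle, at 175 in its 5' UTR. chmp-7, a relative of the ESCRT membrane-remodelling proteins, followed at 152. D2030.3, annotated as a Fanconi anemia group I protein, had 151, and ZK484.6, of the phosphoglycerate mutase family, had 139 in its 5' UTR. F57F5.3, with an ABC transmembrane domain, had 135, and R03D7.2, with a helicase-like domain, had 134. T28F4.4, with a Pumilio-type RNA-binding domain, had 129. The arrestin-domain gene arrd-6 had 126, the LysM-domain gene lmd-2 had 116, and zig-7, a small immunoglobulin-domain protein, had 115. D2030.12 and pycr-4, a putative pyrroline-5-carboxylate reductase, both had 111. The annotations of these genes range from signalling and membrane traffic to amino acid metabolism.

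In the candidate lists these 12 peaks were uneven between the replicates, with the higher value in replicate 2 for 9 of them. egl-30 had 75 in replicate 1 and 96.8 in replicate 2, D2030.3 had 70.8 and 85, and ZK484.6 had 75.5 and 66.4. These 3 were in both replicates' own lists. The wider gaps were in chmp-7 (45.5 and 97.2), F57F5.3 (37.8 and 96.9), lmd-2 (36.2 and 87.7) and D2030.12 (25.5 and 77.2), each in the list of replicate 2 only. T28F4.4 (59.5 and 61.6), arrd-6 (55 and 76.4) and zig-7 (48.9 and 67.3) were also in that list only. R03D7.2 was higher in replicate 1 (72.9 and 64) and in its list only. pycr-4 (63.9 and 47) was in neither list, although it is among the 15 strongest.

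The 6 peaks in 5' UTRs were stronger than those in coding sequence, with a median signal of 111 against 68.3. This difference rests on few peaks and was not tested. The exon under the C34C12.2 summit was 2829 bp long, and its summit was 2641 bp from the host's nearest 5' end. The egl-30 exon was 1636 bp long with the summit 239 bp in, which is just outside the promoter window. The ZK484.6 summit lay 268 bp from a host 5' end, that of R08C7.12 395 bp, that of F22D3.4 918 bp and that of rsbp-1 924 bp. R08C7.12 had a signal of 83.8, F22D3.4 83.2 and rsbp-1, which binds regulators of G-protein signalling, 63.7. The 3 strongest of the 6 were in both replicates' lists, F22D3.4 was in that of replicate 2, and R08C7.12 and rsbp-1 were in neither.

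Most coding-exon peaks were weak. Their median signal was 68.6, with a middle range (first to last quartile) of 61.5 to 81.8. All other peaks had a median of 95.4 and a middle range of 73.9 to 140, and reached 1562. Only 30 of the 206 (14.6%) reached the median signal of the series list, 92.9, against 52.4% of the other peaks. This was an odds ratio of 0.155 (two-sided Fisher's exact test, p adjusted by Benjamini-Hochberg over 15 tests = 3.16e-27). Intron peaks outside promoter windows did not share the weakness: 55.7% of 483 reached that value (adjusted p = 2.42e-24, same Fisher's exact test). Intergenic peaks did not either, at 51.5% of 761 (adjusted p = 8.52e-23, same Fisher's exact test). The 96 peaks in 3' UTRs were nearer, with a median of 74.9. Of the intron peaks 45.1%, of the intergenic peaks 25.9% and of the members 2.91% lay within 500 bp of a noncoding RNA gene. With such peaks left out, 47.2% of all other peaks reached the list's median (adjusted p = 3.72e-20, Fisher's exact test). Peaks are not independent replicates, so these p values describe this list and not the spread between worms.

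**Figure D1:**
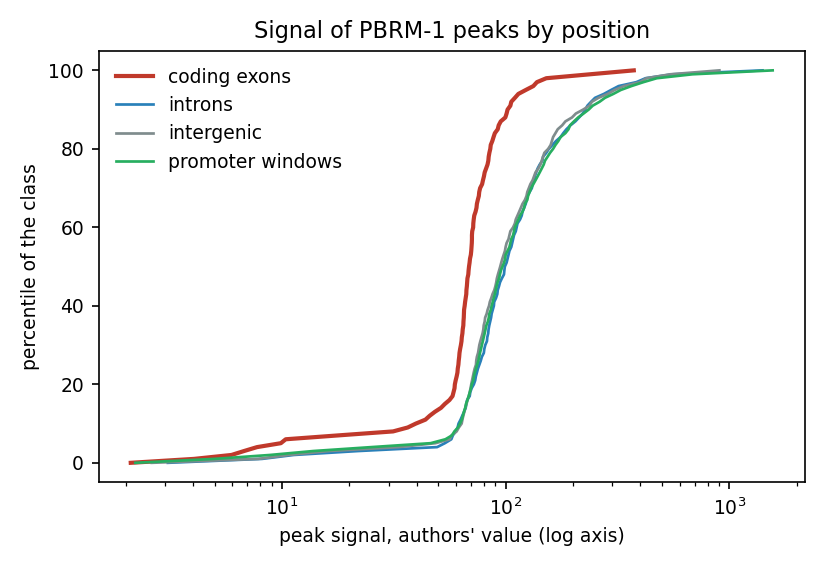
Percentile of peaks (vertical axis) at or below each signal, the authors' value without a stated unit (horizontal log axis), for series-list peaks in coding exons, introns, intergenic sequence and promoter windows. The coding-exon curve rises at lower signal, with its median at 68.6, while the curves of the 3 other classes lie close together.

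By the authors' caller these peaks were also less certain, but its q value followed the signal among them. The −log10 q was 1.31 at a signal of 71.18 (tra-2) and 1.29 at 70.9 (C23G10.7). The test on q is therefore close to a test on signal at another cut-off, and is not separate support. A caller q value below 0.05 was reached by 76.6% of the whole series list. Among coding-exon peaks it was reached by 84 of 206 (40.8%), against 79% of all other peaks (odds ratio 0.183, Fisher's exact test, adjusted p = 4.88e-29). The gap was narrower among peaks that a single replicate called. It was 87.2% against 94.8% in the list of replicate 2 alone (adjusted p = 0.0113, Fisher's exact test) and 75.7% against 93.8% in that of replicate 1 alone (adjusted p = 0.000598, Fisher's exact test). The highest possible score of 1000 was held by 93 of them (45.1%), against 77.9% of the others. The list that the authors named conservative held 2917 peaks, of which 175 met the coding-exon rule. It overlapped 79.7% of the series list and 123 of the 206 coding-exon peaks (59.7%). The other peaks stood at 81% (odds ratio 0.347, Fisher's exact test, adjusted p = 1.26e-11). Among peaks with a q value below 0.05, 88.1% of coding-exon peaks and 91% of the others were in the conservative list, and that difference did not pass the test (adjusted p = 0.364, Fisher's exact test).

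The share of coding exons climbed as peaks weakened. Among the 325 strongest peaks of the series list (signal from 221 to 1562), 3 summits were in coding exons (0.923%). In the next 324 and the 324 after them the shares were 0.617% and 1.85%. Among the weakest 325 it was 14.8%, and in the 324 before them 17.3%, close to the 19.2% of the genome that these exons cover. The longer ranked list of 89851 candidates, which holds all series peaks, carried the rise further. Of its first 1000 candidates, 1.1% were in coding exons, and of those between ranks 3000 and 5000, 19% were. Between ranks 10000 and 20000 the share was 28.3%, above the share of the genome.

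**Figure D2:**
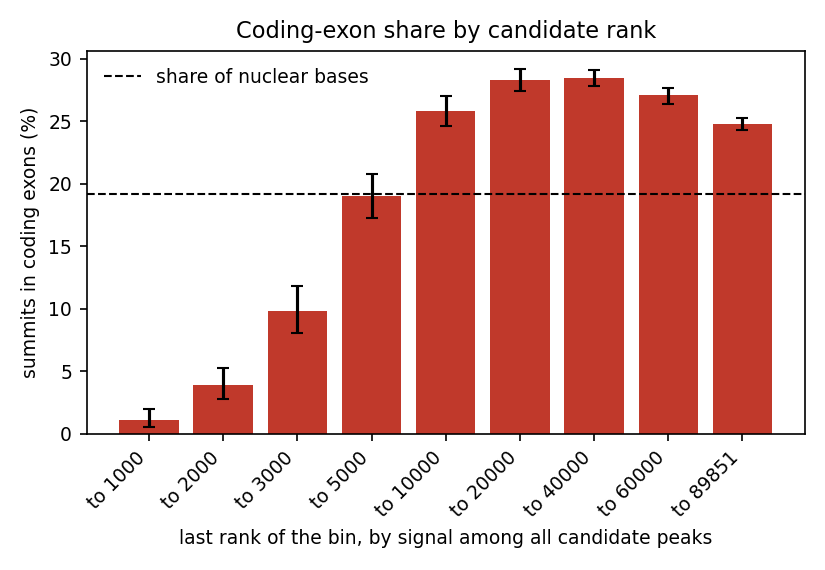
Share of candidate-peak summits in coding exons outside promoter windows (vertical axis, percent, with exact 95% binomial intervals) in bins of rank by signal among 89851 candidates (horizontal axis). The share is 1.1% in the first bin, passes the genome share of 19.2% (dashed line) after rank 5000, and lies between 24.8% and 28.5% beyond it.

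The weakest members were of another kind. The 5 lowest signals were 2.11 in glh-1, a Vasa-like helicase of germ granules, 3.04 in rod-1, a kinetochore protein, 3.97 in cdc-48.2, a p97 ATPase, 5.61 in pkn-1, a protein kinase C relative, and 5.94 in W08E3.4. Each of the 17 members with a signal below 30 overlapped a stronger peak of the same list. In all, 23 members (11.2%) overlapped a stronger peak, against 143 of the other peaks (4.71%). In 3' UTRs the share was close to that of the members, at 10 of 96 peaks (10.4%). The median signal of the 23 members was 10 and that of the stronger neighbour was 77.7, with the summits 199 to 262 bp apart. Of the 23, 20 carried the same score as the stronger peak. The stronger neighbour was itself a coding-exon peak in 9 cases and lay in a promoter window in 5. With these 23 left out, 183 members remained, with a lowest signal of 36.3 and a median of 70.5, still below the 95.4 of the other peaks.

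Neither replicate alone called most of these peaks. Of the series list, 34.8% of peaks overlapped a peak in each replicate's own thresholded list and 32.4% overlapped one in neither. Of the 206 coding-exon peaks, 20 were in both lists (9.71%, exact interval 6.03 to 14.6), against 36.5% of the other peaks (odds ratio 0.187, Fisher's exact test, adjusted p = 3.98e-17). In neither list were 130 (63.1%, exact interval 56.1 to 69.7), against 30.4% of the others (odds ratio 3.92, Fisher's exact test, adjusted p = 2.37e-20). The same held against introns, where 38.9% were in both lists (adjusted p = 6.14e-16, Fisher's exact test), and against intergenic peaks, at 37.6% (adjusted p = 4.22e-16, Fisher's exact test). The 96 peaks in 3' UTRs were closer to the members, with 15.6% in both lists and 53.1% in neither, and were not tested against them. Replicate 2 carried more of the support: 44 peaks were in its list only and 12 in that of replicate 1 only. Its list is also longer, with 2173 peaks against 1370. Membership was not separate from signal, since members in both lists had a median signal of 96.1 and those in neither 65.4. Among peaks with a caller q below 0.05, 42.9% of members and 19% of the others were in neither list (Fisher's exact test, adjusted p = 1.59e-06). Signals were not matched between members and the others.

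Below the thresholds, nearly all of these peaks had a counterpart in each replicate. A candidate peak was present in both ranked lists for 200 of the 206 (97.1%), against 97.7% of the other peaks. These lists are permissive: the 54625 candidates of replicate 1 cover 14.9% of the genome and the 48976 of replicate 2 cover 13.8%. The median candidate signal was 35.3 in replicate 1 and 39.9 in replicate 2, against 43.6 and 56.9 for the other peaks. Both counterparts were among the first 5000 candidates for 110 members (53.4%), against 77.9% of the others. The value was higher in replicate 2 at 133 of the 200 (66.5%), and at 79.5% of the other peaks.

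The replicates gave different orders to the coding-exon peaks. Across the 200 peaks with both values, Spearman's rho was 0.0149 and Pearson's r was 0.609. The other peaks had 0.649 and 0.933. All these peaks were chosen on a list pooled from both replicates and the members span a narrow range, so the values are a description of the list. Each peak took the strongest candidate it overlapped, so members that overlap a stronger peak can carry its values. Both glh-1 peaks, for example, had 22.6 in replicate 1 and 63.6 in replicate 2. The 130 peaks in neither list had medians of 32.7 and 37.2, and the 20 in both lists had 56.5 and 63.4.

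**Figure D3:**
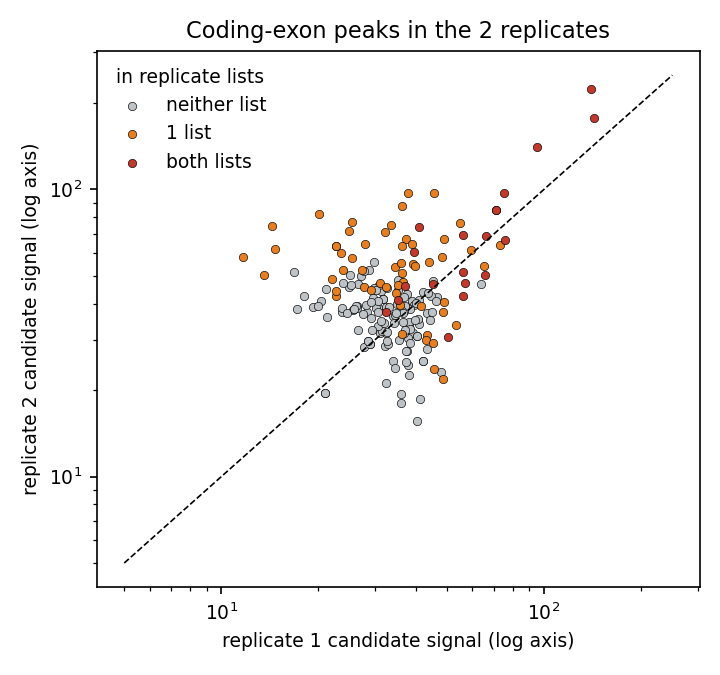
Candidate signal of coding-exon peaks in replicate 1 (horizontal log axis) and replicate 2 (vertical log axis), each in the authors' own value, coloured by presence in the replicates' thresholded lists, with the dashed line at equal values. The 130 peaks in neither list have medians of 32.7 and 37.2, and 3 peaks in both lists lie above all others.

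The 20 peaks in both lists form the set best supported by the replicates' lists. A caller q value below 0.05 was held by 11 of them, against 32 of the 44 in the list of replicate 2 only. The set of 20 holds C34C12.2, dos-3, pks-1, egl-30, ZK484.6 and both peaks of D2030.3, already described. pgal-1, an enzyme that amidates peptides, had a signal of 107, with 41.1 in replicate 1 and 74.1 in replicate 2. F32D8.3, with a trypsin-inhibitor-like domain, had 101.2, with 56.9 and 47.4, and pals-26, of the ALS2CR12-signature family, had 100, with 39.5 and 60.4. R12E2.13, with a MIR domain, had 99.5 and F26A3.4, a protein-tyrosine phosphatase, had 92.8. The ribosomal protein gene rpl-7A followed at 67.1 and the Hsc70 chaperone gene hsp-1 at 64.5. The hsp-1 summit lay within 500 bp of a noncoding RNA gene, as did 6 members in all (2.91%) and 20.2% of the other peaks. F27D4.1, an electron transfer flavoprotein subunit, had 49.1, and unc-78, an actin-interacting protein of muscle, had 47.2. F25B5.5, a CDK5RAP1-like protein, had 46, Y34D9A.8 had 28.3, thoc-7 of the mRNA-export THO complex had 11.2, and cpg-2, a chondroitin proteoglycan of the eggshell, had 8.76. Of the 20, 7 were peaks that overlap a stronger one, so their overlap with the replicates' lists can come through the neighbour. Without the 23 overlapping peaks, 13 of 183 (7.1%) were in both lists and 119 (65%) in neither.

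The summits gathered toward the 3' ends of their host genes. Of the 206, 63 (30.6%, exact interval 24.4 to 37.4) lay within 250 bp of a host 3' end, while 9.09% of the eligible coding bases do. Within 500 bp the shares were 43.2% and 18.9%. Of the members, 71 lay within 500 bp of both their host's 3' end and the 3' end of a convergent gene. Of these, 21 were among the 30 members at or above the list's median signal. At such sites the host's end cannot be told apart from the neighbour's. The last exon held 77 summits (37.4%) and the first exon 17. Eligible bases were not counted at convergent ends or by exon, so these counts have no background. The promoter windows also take bases out of first exons. Of the 30 members at or above the list's median signal, 20 (66.7%, exact interval 47.2 to 82.7) were within 250 bp of the 3' end, against 43 of the 176 weaker ones (24.4%). The chmp-7 and zig-7 summits lay 81 bp from it, that of arrd-6 90 bp, and that of dos-3 236 bp. The pks-1 summit was 12394 bp from the 3' end and, at 15214 bp, the farthest of the members from the nearest 5' end of any gene. The weaker peaks of ret-1 and pezo-1 lay farther from the 3' end, at 17266 and 20392 bp. Peaks near the 3' end were also better supported: 36 of 63 (57.1%) were in at least 1 replicate's list, against 40 of the 143 farther away (28%). Of the 44 peaks in the list of replicate 2 only, 22 were within 250 bp of the 3' end, and of the 130 in neither list, 27 were (20.8%). The share of eligible bases does not allow for the clustering of peaks, and no test was made of it.

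**Figure D4:**
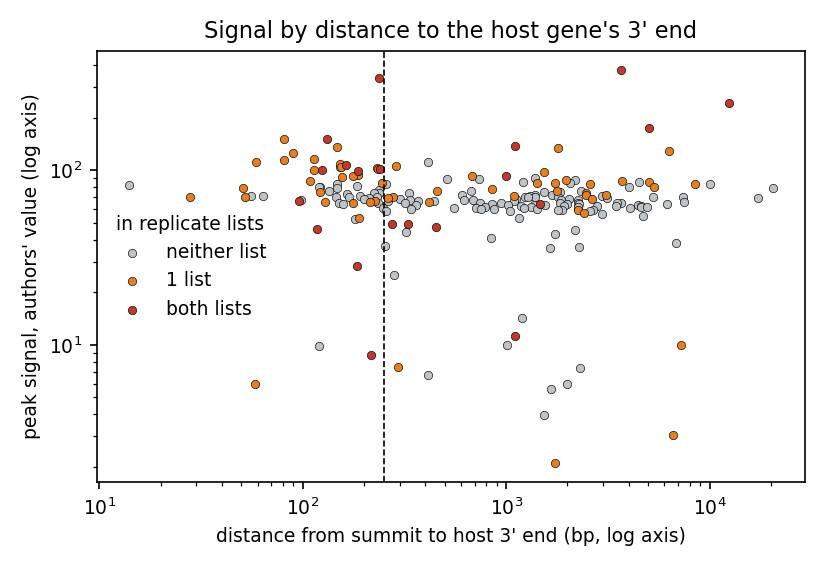
Signal of each coding-exon peak, the authors' value (vertical log axis), against the distance from its summit to the 3' end of the host gene in bp (horizontal log axis), coloured by presence in the replicates' thresholded lists. Of the 63 peaks left of the dashed line at 250 bp, 36 are in at least 1 list, against 40 of the 143 to its right.

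Several of the strong 3' peaks sat beside ribosomal protein genes that are not their hosts. These neighbours were looked at after the values of the members were seen. Within 500 bp of such a gene lay 9 members: chmp-7 beside rpl-32, lmd-2 beside rpl-4, zig-7 beside rpl-41.2, dhcr-7, a 7-dehydrocholesterol reductase gene, beside rpl-2, gpr-158 beside rps-26, C27A2.12 beside rpl-22, madf-10 beside rpl-30, lgc-31 beside rpl-38 and thoc-7 beside rpl-29. Another 4 members had a ribosomal protein gene as host, which makes 13 in all (6.31%). Of the eligible bases, 0.117% lie within 500 bp of a ribosomal protein gene. The share of the other peaks was not counted, so the pattern is not shown to be particular to coding exons. The signals of the 9 had a median of 100, and 6 of them reached the list's median. The first 7 of the 9 named were in the list of replicate 2 and not in that of replicate 1, lgc-31 was in that of replicate 1 only, and thoc-7 was in both. At dhcr-7 the candidate signal was 33.6 in replicate 1 and 75.4 in replicate 2.

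The 206 peaks marked 189 host genes, 0.946% of the 19973 protein-coding genes. The hosts' median coding length was 1380 bp, against 987 bp for all genes. A promoter summit was present at 9.85% of all protein-coding genes. Among the hosts, 65 had one (34.4%, exact interval 27.6 to 41.6). For 5 members, the promoter peak is the stronger neighbour they overlap. The other hosts were marked in the exon without a promoter summit.

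Among hosts with several members, vit-6, a yolk protein gene, had 4, with signals from 9.84 to 61.4, and cdc-48.2 had 3, from 3.97 to 43.2. Another 12 genes had 2 each. Both members were similar in mnk-1, a MAP-kinase-interacting kinase, at 87.1 and 85.4, and in prg-1, the Piwi protein that binds piRNAs, at 88 and 84. lrp-1, a lipoprotein receptor of the skin, had 83 and 69.9, hsp-1 had 70.9 and 64.5, and csr-1, a germ-line Argonaute, had 78.1 and 57.1. In glh-1, rpl-7A, tbg-1 (gamma-tubulin), D2030.3, pkn-1, Y39E4B.6 and acdh-1 (an acyl-CoA dehydrogenase), at least 1 of the members overlapped a stronger peak.

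Hosts were sorted by 24 lists made from gene names. A list can miss hosts of its family, so each count below is of the list and not of the family. Germ-line and oocyte genes gave 5 of 109: glh-1 at 88.2, gld-1, a translational repressor of meiosis, at 84.7, rme-2, the yolk receptor of oocytes, at 61.6, cbd-1, an eggshell protein, at 58.9, and cpg-2 at 8.76. Argonautes gave 2 of 22, prg-1 and csr-1, and vitellogenins 2 of 6, vit-6 and vit-2 (58.3). Chromatin regulators gave 5 of 120, all below the list's median signal: the demethylase genes jmjd-1.2 at 64.9 and jmjd-2 at 58.1, the methyltransferase genes set-26 at 63.7 and set-18 at 6, and epc-1, an enhancer of polycomb relative, at 38.3. None of these 5 was in either replicate's list. The host sop-2, a Polycomb protein at 70.45, was outside the list of chromatin regulators.

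Ribosomal proteins gave 3 of 81, rps-13 at 101.1, rps-7 at 93 and rpl-7A at 67.1. The rps-13 summit lay within 500 bp of a noncoding RNA gene. Kinases by name gave 3 of 137, unc-51, which starts autophagy, at 88.6, aak-2, an AMP-activated kinase, at 65.2 and par-1, a polarity kinase, at 59.3. The kinase hosts mnk-1 (87.1 and 85.4), dapk-1 (73.2) and pkn-1 (67.2 and 5.61) were outside that list. Ion channels by name gave 2 of 298, best-18 at 105 and lgc-31 at 53.6, and cuticle collagens 2 of 180, col-132 at 68.2 and col-123 at 64.7. The hosts pezo-1, a mechanosensitive channel (79.2), and vdac-1, a putative anion channel (72), were outside the list of ion channels. F13D12.8, with a cuticle collagen domain (66.4), was outside that of the collagens. A single host came from the C-type lectins (clec-264, 93.3), chemoreceptors (srz-83, 82, 1 of 1309), chaperones (hsp-1), translation factors (eef-1A.1, 68.4), detoxification genes (cyp-34A5, 68), nuclear transport (ima-3, 64.2), splicing (rnp-2, 63.4), muscle (unc-78) and motors (klp-7, 36.3). The lists of 417 F-box and MATH genes, 269 nuclear hormone receptors, 103 matrix and apical proteins, 89 homeobox genes, 83 histones, 56 ABC transporters and 32 aminoacyl-tRNA synthetases held 0 hosts. F57F5.3, with an ABC transmembrane domain and a signal of 135, was a host outside the list of ABC transporters. With 0.946% of all genes as hosts, most of these counts are of a few genes, and coding length differs between the lists.

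A stretch of chromosome I beside the tagged gene held more of these peaks than any other. pbrm-1 itself spans I:7495436-7503582 on the plus strand. In the 250 kb downstream of it lay 49 series peaks and 12 of the 206 coding-exon peaks (5.83%), against 1.22% of the other peaks and 0.355% of the eligible bases. The mean over the genome was 8.09 peaks and 0.514 coding-exon peaks per 250 kb. The 250 kb upstream held 9 peaks and 1 member, the T28F4.4 peak, and the next 250 kb downstream 16 and 3. Among 404 fixed bins of 250 kb, the bin I:7500001-7750000 had the most peaks, 50, and the most members, 12. The next bin by members had 4.

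The 12 peaks lay 75.1 to 201 kb from pbrm-1 in 9 genes: D2030.3, D2030.12, prg-1, wdr-23, lrp-1, F26A3.1, F26A3.4, gld-1 and F27D4.1. Their median signal was 83.5, and the 38 other members on chromosome I had 69.2. At least 1 replicate's list held 8 of the 12, and both lists held 4. The replicates showed the stretch separately. Replicate 1 had 26 peaks there against a mean of 3.42 per 250 kb, and replicate 2 had 37 against 5.42. In the ranked list the number of candidates of all classes was 230, against a mean of 224. Those in coding exons numbered 95 (41.3%), against a mean of 57.7 and 66 in the 250 kb upstream. The median signal of all candidates was 37.2 against 21.4 upstream, and that of the coding-exon candidates 33.4 against 18.2. The part of the inserted tag in this was not tested. With the stretch left out, 8.25% of the members were in both lists, 64.9% in neither and 39.2% below the q threshold, and each share still differed from the other peaks in the same direction (Fisher's exact test, adjusted p at most 3.17e-18).

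**Figure D5:**
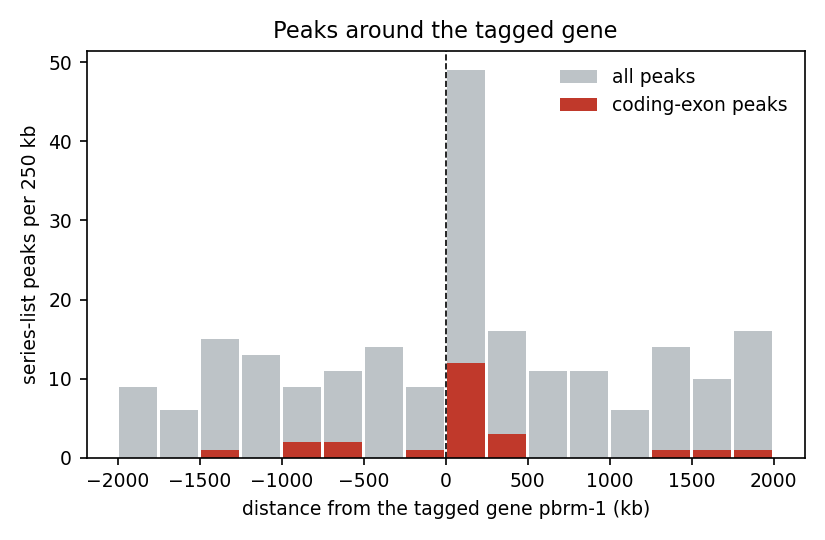
Number of series-list peaks (grey) and of coding-exon peaks among them (red) per 250 kb (vertical axis) by distance from the tagged gene pbrm-1 in kb, with downstream positive (horizontal axis). The first 250 kb downstream holds 49 peaks and 12 coding-exon peaks, and the other bins shown hold at most 16 and 3.

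Chromosome I held 50 members in all (24.3%), with 16.1% of the eligible bases. Chromosome V held 32 (15.5%) with 21.8% of the bases, and X held 15 (7.28%) with 15.7%. On X, 2.95% of the series peaks were in coding exons, the lowest of the 6 chromosomes. The medians of signal per chromosome stayed between 64.8 and 71.5.

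The sequence at the summits differed from that of other peaks in its motifs more than in its GC content. The mean GC content of the summit base and 50 bp to each side was 46.8% ± 7.27 (SD over 206 peaks), against 47.2% for the other peaks and 49.4% for introns. Windows centred 300 bp to each side of the member summits had 37.6% ± 9.84 (SD), and the eligible coding bases had 42.7%. Motifs were searched as plain letters on both strands. GAGAG was in 19.9% of member windows and 31.3% of the other peaks' windows. GCGCC was in 4.37% against 24.6%, AAAAAA in 11.2% against 22.1%, and CTGCGTC in 0.485% against 7.24%. TTTCAG, the letters of the worm splice acceptor, went the other way, at 15.5% against 8.26%. GATAA (16% against 13.9%), CACGTG (3.88% against 3.29%) and TTTGAA (11.2% against 15.1%) were closer. A repeat-masked base lay under 7 member summits (3.4%) and under 19.3% of the others. These shares are descriptions, and coding sequence differs from other sequence in its letters.

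Peaks just inside and just outside the window that sets the members' boundary had similar signals. Coding or 5' UTR summits in the last 100 bp inside the downstream edge (50 peaks) had a median signal of 70.5, with 7 in both lists and 28 in neither. The 19 members in the next 100 bp outside had 68.2, with 3 in both and 8 in neither. At the upstream edge, 5 peaks inside had 68.4 and 8 members outside had 76.4. All 232 coding or 5' UTR summits inside promoter windows had a median of 78.1, with 50 in both lists, 108 in neither and 143 with a q value below 0.05.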

How the data were processed

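The authors deposited 8 peak lists on ce11 without header lines. The aligner, peak caller and read depth were not given in the sources used here. Each signal value is the authors' own with an unstated scale. The deposited score is, per the values, a scaled irreproducible discovery rate from 830 to 1000 in the series list, and the authors gave each q value as −log10. What was compared for the series list is not stated. Summits were placed on Ensembl release 115 genes (WBcel235, the assembly of ce11), and 0 peaks passed a chromosome end. Coding sequence took precedence over 5' UTRs. Product names came from RefSeq. In the series-level ranked lists, 4 columns of signals of unnamed origin were not used. A peak was in another list if it overlapped by at least 1 bp. Each of 5 measures was compared with 3 sets of peaks by two-sided Fisher's exact tests (scipy 1.17.1, Python 3.11.15), with 95% Clopper-Pearson intervals, which cover counting error only. The scripts were tested on simulated data. The members and gene lists were chosen with earlier results of these data known. Genes named were the 15 members of largest signal, the 5 of lowest, all in both lists, all in 5' UTRs, hosts with several members, and up to 3 per gene list. Where a list held 5 or fewer hosts, all were named, as were genes by ribosomal protein genes or pbrm-1, after their values were seen. Alternatives were other lists, windows, overlaps, positions and filters. No sequence from chromosome I is printed, so members there, some of them stronger than those printed, were passed over.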

Additional observations from a re-analysis of the deposited data

How the results depend on the processing

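Of 84 values recomputed under 15 alternatives, 73 stayed on the same side, 10 moved and 1 no longer passed. The values at the peak midpoint, which gave 205 members, could hardly move. The summit of most members is already the centre of a 320 bp peak. The number of coding-exon peaks fell from 206 to 84 with a caller q below 0.05 and to 127 with a window of 2000 bp upstream and 500 bp downstream. Their share of peaks, 6.35%, became 3.38% with the q filter, 3.92% with the wider window, 8.82% with a window of 500 bp upstream and 100 bp downstream, and 7.62% without peaks near noncoding RNA genes. In 1 replicate's own list alone, the number was 37 to 78 and the share 2.7% to 3.59%, the lower values without replicate 2. The share in the conservative list with the q filter, 88.1% against 91%, no longer passed (Fisher's exact test, adjusted p = 0.364), where fewer peaks were tested. The share in both lists was 4.85% with reciprocal overlap of 50%, 5.83% with summits within 100 bp, and 53.4% when the top 5000 candidates of each replicate replaced its list. Leaving out overlapping peaks or the stretch beside pbrm-1 was chosen after seeing the data. No paired analysis was possible because there is 1 group. Depth is unknown, so support that a replicate lacks was not detectable in its list and is not shown to be absent.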
